A study of Drosophila melanogaster with 7 samples.

Results

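Under the notum of the wing imaginal disc, the larval epithelium from which the wing blade, hinge and back of the adult develop, lies a layer of adult muscle precursors, the myoblasts that later build the flight muscles. The genes described here are 9 of the 17208 genes in the table, chosen by symbol as genes of these precursors and of myoblast fusion. They are 5 genes of the precursor state (twi, Mef2, Him, zfh1 and Ama), 3 of cell fusion (sns, rols and mbc) and kon, a gene of muscle attachment. All 9 were found and all 9 had enough counts to be tested.

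The precursors keep dividing and stay undifferentiated while the transcription factor Twist and its partners are present and Notch signalling is active. Mef2 drives muscle differentiation, and Him holds Mef2 back. At metamorphosis the myoblasts recognise each other through immunoglobulin-domain receptors, and a chain of adaptors and a Rac exchange factor turns that contact into actin remodelling and fusion.

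The libraries came from wing discs of third-instar Drosophila melanogaster larvae, 4 of the genotype ds38k, a mutant of the cadherin gene dachsous (ds), and 3 of the wild type (WT), whose library names begin with w1118.csvd111. The tag csvd111 appears in the WT names alone and is not explained in the labels, so what it stands for cannot be told apart from the genotype. The labels give neither the number of discs in a library, nor the sex of the larvae, nor whether ds38k was homozygous. They do not say that replicates came from separate animals, so the p-values rest on a spread between libraries that may be technical. The discs held epithelium, myoblasts and whatever tissue adhered to them, so fewer myoblasts and less RNA per myoblast cannot be told apart in these values. The study concerns the polarity and Hippo signalling functions of Fat and Dachsous, and the comparison asks how transcripts differ between discs with and without the ds mutation.

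The total count was 25192527 to 31141974 in the ds38k libraries and 21438604 to 31718937 in the WT libraries. Ribosomal RNA took 11.4% to 15.2% of the counts in ds38k and at most 1.5% in WT; with its genes left out of the table, 3 of the myoblast genes were called higher and 5 lower, as many as with them. Transcripts of ds itself had 161 to 229 CPM (counts scaled to a common library size with TMM factors) in ds38k and 1422 to 1701 CPM in WT. Wide differences and a length trend in the whole table touch every value below. Of 9294 tested genes 65.0% were called different between the genotypes (quasi-likelihood F-test of edgeR with an adjusted p under 0.05, by Benjamini-Hochberg), 34.2% being higher and 30.8% lower in ds38k. The fold change also ran with transcript length, with a median log2 fold change of 1.10 in the shortest and -1.60 in the longest of 10 classes of protein-coding genes. A second fit reduced this trend in every library, and its values are called length corrected. The class medians then still ran from 0.34 in the shortest to -0.18 in the longest class. In this second fit 46.7% of 9224 genes were called, 27.6% higher and 19.1% lower. One library stood apart. The chi-square over its degrees of freedom was 222 to 250 between the counts of ds38k replicate 4 and those of each other ds38k library, against 33.8 to 67.3 among the other 3, and fits without it are given where it stood apart from the rest of its group.

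Among the 9 myoblast genes Him, Ama and twi rose in ds38k discs, Mef2, sns, rols, mbc and kon fell, and zfh1 was not called. That is 3 higher and 5 lower of 9, in a table where 65.0% of genes were called, so the share called says nothing particular about these genes. With the length correction Him, Ama and rols were called higher, mbc was called lower, and the other 5 were not called. In that fit 46.7% of all genes were called. For 7 of the 9 the ranges of CPM were apart, with 2 higher and 5 lower in ds38k. Of all tested genes 66.4% had such separate ranges, 34.4% higher and 32.0% lower in ds38k. Without ds38k replicate 4 the counts were 2 higher and 6 lower, or 4 higher and 2 lower with the length correction. In the uncorrected fit without that library 3341 of 9214 tested genes were higher and 3190 lower. Over the length corrected fits that each left a library out, 1729 to 2741 of all genes were higher and 1267 to 2317 lower.

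Him, whose product binds Mef2 and recruits the co-repressor Groucho, had the largest rise of the 9. It had 28.3, 21.0, 20.3 and 15.2 CPM in ds38k replicates 1 to 4, against 7.76, 5.31 and 3.77 CPM in WT replicates 1 to 3. Every ds38k library lay above every WT library, although the groups themselves spread widely. The mean was 21.2 ± 5.39 CPM (SD, n = 4) in ds38k and 5.61 ± 2.01 CPM (SD, n = 3) in WT, a 3.78-fold difference. On the log2 scale the fold change was 1.92 ± 0.31 (SE; edgeR adjusted p = 0.0012). With the length correction it was 1.22 ± 0.28 (edgeR adjusted p = 0.010), or 2.33-fold. The counts behind these values were 416 to 757 in ds38k and 109 to 186 in WT, so Him was the member with the fewest reads in WT.

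Ama, a secreted immunoglobulin-domain protein that serves as a ligand of the adhesion receptor Neurotactin, was the most abundant member. It had 653, 674, 607 and 613 CPM in ds38k replicates 1 to 4, against 220.3, 255 and 267 CPM in WT replicates 1 to 3. The ds38k libraries agreed closely, and all of them lay above all WT libraries. The means were 637 ± 32.1 CPM (SD, n = 4) in ds38k and 247 ± 24.3 CPM (SD, n = 3) in WT. Ama rose 2.57-fold, with a log2 fold change of 1.36 ± 0.09 (SE; adjusted p of edgeR = 2.2e-05), and 1.06 ± 0.10 (adjusted p = 3.1e-04) with the length correction, a 2.09-fold rise. Nrt, which encodes Neurotactin and belongs to the list of other progenitor regulators, was not called, with 133 ± 7.97 CPM in ds38k and 149 ± 26.8 CPM in WT, a log2 fold change of -0.17 that was 0.09 with upper-quartile scaling. Its length corrected log2 fold change was 0.60 (edgeR adjusted p = 0.0085).

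twi encodes the basic helix-loop-helix factor Twist, the defining regulator of the precursors. It had 41.6, 37.2, 37.2 and 44.2 CPM in ds38k replicates 1 to 4, against 37.2, 26.2 and 23.5 CPM in WT replicates 1 to 3. WT replicate 1 lay within the range of the ds38k libraries, so the groups overlapped. The log2 fold change was 0.47 ± 0.17 (SE; edgeR adjusted p = 0.042), a 1.38-fold difference, and the length corrected value was 0.39 ± 0.16 (adjusted p = 0.087). The call was lost with all libraries kept under RLE size factors (0.42, edgeR adjusted p = 0.056) and with no filter on low counts (0.46, 0.062). It was kept in 1 of the 7 fits that left a library out, the fit without WT replicate 1, where the value was 0.69 (adjusted p = 0.0035). In the other 6 it ranged from 0.33 to 0.52 with adjusted p-values up to 0.140.

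Mef2 encodes the MADS-box factor that activates muscle structural genes. It had 65.5, 65.3, 66.1 and 65.9 CPM in ds38k replicates 1 to 4, against 89.6, 83.9 and 98.1 CPM in WT replicates 1 to 3. The ds38k libraries were nearly equal, and all lay below the lowest WT library. Their SD of 0.362 CPM was 0.551% of the mean, less than the counting error of 2.44% that their read numbers carry, so this spread is narrower than counting alone would give. Mef2 fell 1.38-fold, a value of -0.46 ± 0.08 in log2 units (SE; edgeR adjusted p = 0.0013). The median of the 859 genes in its length class was -0.44, and the length corrected value was 0.19 ± 0.08 (edgeR adjusted p = 0.085), of the opposite sign and not called.

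zfh1, a zinc finger and homeodomain repressor that keeps precursors from differentiating, divided the ds38k libraries. It had 10.8, 7.61, 10.5 and 34.8 CPM in ds38k replicates 1 to 4, against 41.6, 31.7 and 47.5 CPM in WT replicates 1 to 3. ds38k replicate 4 lay within the WT range and the other 3 lay far below it. With all libraries the log2 fold change was -1.34 ± 0.52 (SE; edgeR adjusted p = 0.053), which misses the threshold. Without ds38k replicate 4 it was -2.06 ± 0.20 (adjusted p = 1.1e-04), and with the length correction as well it was -0.54 ± 0.16 (adjusted p = 0.023), against 0.16 ± 0.50 (0.81) with all libraries. The uncorrected call also turned on the scaling and the tool: with all libraries kept, edgeR with RLE size factors gave -1.40 (adjusted p = 0.043) and DESeq2 gave -1.40 (adjusted p = 0.0064).

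**Figure D1:**
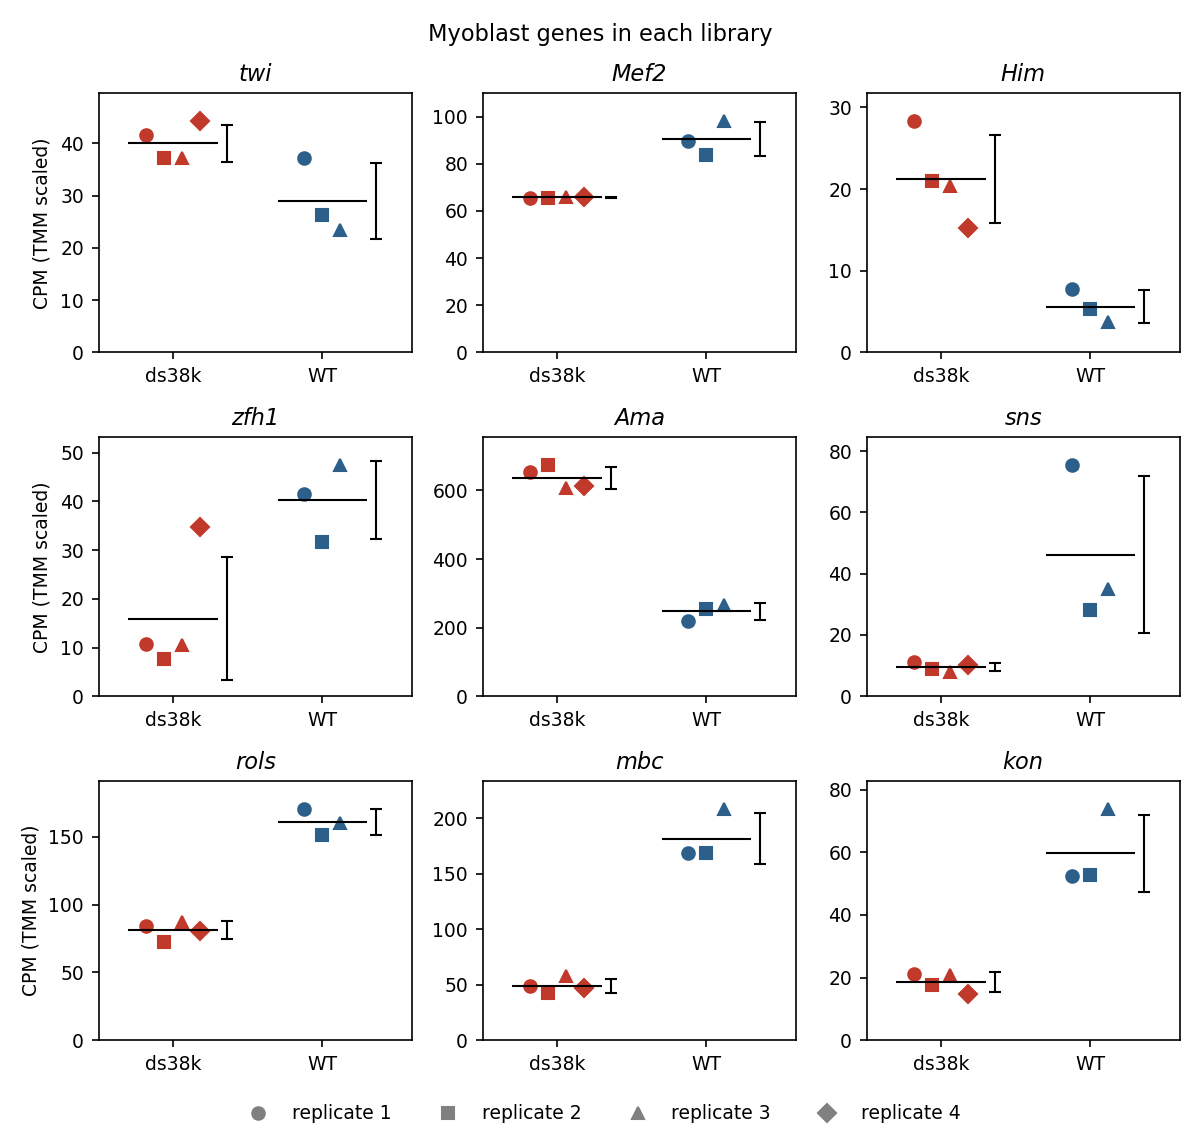
CPM (TMM scaled, linear axes from 0) of the 9 myoblast genes in each library, ds38k left of WT. Horizontal lines are group means, bars beside them the SD (n = 4 and 3), and marker shapes the replicate numbers. Him and Ama lie higher in every ds38k library than in any WT library, and ds38k replicate 4 has 34.8 CPM of zfh1 while the other ds38k libraries have 7.61 to 10.8 CPM.

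The 3 fusion genes fell together before the length correction. sns encodes Sticks and stones, the receptor of fusion-competent myoblasts. It had 11.1, 8.95, 7.85 and 10.3 CPM in ds38k replicates 1 to 4, against 75.5, 28.1 and 35.1 CPM in WT replicates 1 to 3. WT replicate 1 had more than the other WT libraries together, and the groups did not overlap. The log2 fold change was -2.27 ± 0.34 (SE; edgeR adjusted p = 8.4e-04), a 4.83-fold fall, and it was -1.72 ± 0.18 (adjusted p = 4.8e-04) without WT replicate 1. The length corrected value was -0.62 ± 0.36 (adjusted p = 0.19). Without WT replicate 1 it was -0.03 ± 0.19 (adjusted p = 0.90).

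rols encodes Rolling pebbles, the adaptor that links the founder cell receptor to the fusion machinery. It had 84.4, 72.1, 87.5 and 80.3 CPM in ds38k replicates 1 to 4, against 171, 152 and 160.1 CPM in WT replicates 1 to 3. The groups were well apart, with little spread in either. rols fell 1.98-fold, a value of -0.99 ± 0.09 in log2 units (SE; edgeR adjusted p = 7.2e-05). The median of the 860 genes in its length class was -1.60, and 79.4% of them had a lower value than rols. The length corrected value was 0.42 ± 0.09 (edgeR adjusted p = 0.0078), so the direction of rols turned with the correction. It was called in that direction in all 7 fits that left a library out.

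mbc encodes Myoblast city, the Rac exchange factor of the DOCK family, which also acts in epithelia. It had 48.4, 42.1, 57.3 and 46.6 CPM in ds38k replicates 1 to 4, against 168, 168 and 208 CPM in WT replicates 1 to 3. The lowest WT library had well over the level of the highest ds38k library. mbc fell 3.73-fold, a value of -1.90 ± 0.13 in log2 units (SE; edgeR adjusted p = 2.1e-05). The length corrected value was -0.30 ± 0.09 (edgeR adjusted p = 0.029), a 1.23-fold fall. The median length corrected value of its length class was -0.18. The corrected call of mbc was kept in 4 of the 7 fits that left a library out. It was lost without ds38k replicate 1 (-0.26, adjusted p = 0.096), ds38k replicate 2 (-0.25, 0.10) or WT replicate 3 (-0.30, 0.066).

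kon encodes Kon-tiki, a transmembrane chondroitin sulphate proteoglycan that guides growing myotubes to their tendon cells. It had 21.1, 17.6, 20.8 and 14.6 CPM in ds38k replicates 1 to 4, against 52.4, 52.8 and 73.9 CPM in WT replicates 1 to 3. All ds38k libraries lay below all WT libraries. The log2 fold change was -1.69 ± 0.18 (SE; edgeR adjusted p = 1.6e-04), a 3.22-fold fall, and the length corrected value was -0.02 ± 0.13 (adjusted p = 0.90). The gene shares 275 exonic bases with grnd on the other strand, which had a mean of 217 CPM in ds38k and 205 CPM in WT and was not called. Use of the strand in counting was not given in the sources used here.

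An exact permutation test, two-sided and over the 35 ways to assign 4 and 3 libraries, gave p = 0.0286 on log2 CPM for Mef2, Him, Ama, sns, rols, mbc and kon, the smallest value this design allows. For twi and zfh1 it gave an exact p of 0.0857. Only groups that do not overlap can reach the smallest value, and 66.4% of all tested genes had separate ranges of CPM.

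**Figure D2:**
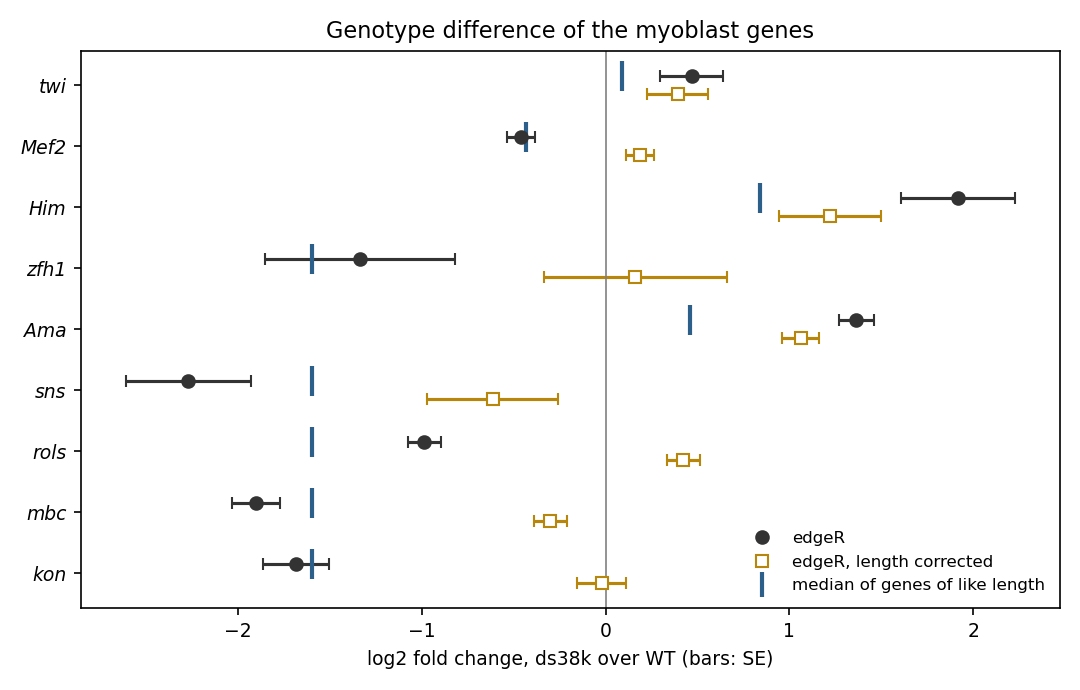
log2 fold change of ds38k over WT for each myoblast gene (circles, edgeR; open squares, edgeR with the length correction; bars, SE), with the median of the genes of the same transcript length class (vertical ticks). Him and Ama lie above 0 in both fits, while the values of rols, Mef2 and zfh1 change sign.

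The direction of each member followed the length of its transcripts. Him has a single annotated transcript of 920 bases, and the median transcript is 1542 bases in Ama, 2097 in twi and 3289 in Mef2. It is 5849 bases in rols, 6522 in zfh1, 7408 in mbc, 8254 in kon and 8544 in sns. The 3 shortest are the members that rose, and the 5 longest all had a lower log2 fold change than Mef2. Set against genes of like length, Him lay 1.08 above the median of its class on the log2 scale, higher than 88.0% of its 861 genes. Ama lay 0.91 above, higher than 88.8% of 857 genes, and twi 0.38 above, higher than 72.8% of 861. Mef2 (-0.03) and kon (-0.09) were close to their class medians. In the longest class rols lay 0.61 and zfh1 0.26 above the median, and mbc lay 0.30 and sns 0.68 below it. That class runs from 4634 to 57886.5 bases with a median length of 5920, so its genes differ in length as well. Whether the length trend is technical or biological was not tested here, and it cannot be told apart from the genotype, since it separates the same groups of libraries.

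**Figure D3:**
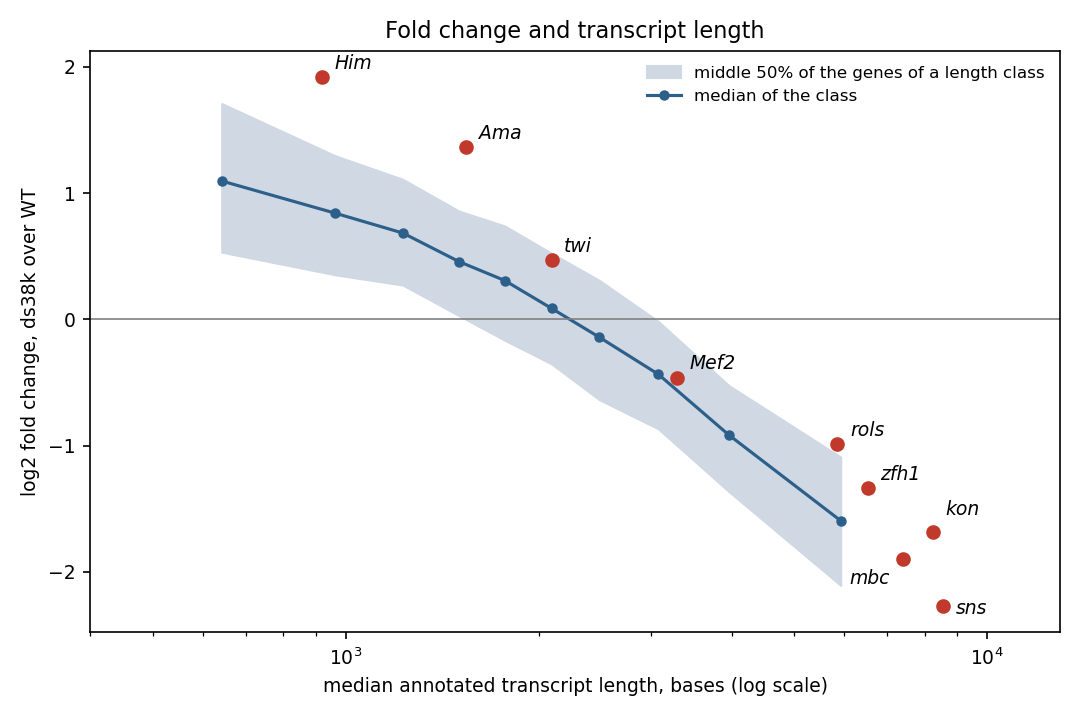
log2 fold change of ds38k over WT against median annotated transcript length (log axis) for the myoblast genes (red), with the median and the middle 50% of the protein-coding genes in 10 length classes, each drawn at its median length. Him and Ama lie above the band of genes of their length. Of the 5 longest members rols lies above and sns below the middle 50% of their class, with mbc, kon and zfh1 within it. The drawn band ends at 5920 bases, so zfh1, mbc, kon and sns stand to its right.

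The genes are spread over the genome. In dm6 coordinates Him (FBgn0030900) lies at X:18209427-18210741, Ama (FBgn0000071) at 3R:6762593-6765261 and twi (FBgn0003900) at 2R:22985374-23048325. Mef2 (FBgn0011656) lies at 2R:9913496-9958858 and sns (FBgn0024189) at 2R:8798489-8856091. zfh1 (FBgn0004606) lies at 3R:30765926-30789202, mbc (FBgn0015513) at 3R:23781765-23801634, rols (FBgn0041096) at 3L:12008225-12064859 and kon (FBgn0032683) at 2L:18487747-18503978. The mutated gene ds lies on 2L as well, as does kon alone among the members. Of the genes overlapping exons of twi, zfh1 and Ama, all had under 1 CPM in every library.

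Per kilobase of median transcript, the scale on which genes can be compared, Ama led in both genotypes with 413 ± 20.8 CPM per kilobase in ds38k (SD, n = 4) and 160.4 ± 15.7 in WT (SD, n = 3). In ds38k the next were Him (23.1 ± 5.86), Mef2 (19.98 ± 0.110) and twi (19.1 ± 1.67), whose ranges overlapped. Then came rols (13.9 ± 1.14), mbc (6.56 ± 0.862), zfh1 (2.44 ± 1.94), kon (2.25 ± 0.373) and sns (1.118 ± 0.169), with zfh1 overlapping kon and sns. In WT the order after Ama was Mef2 (27.5 ± 2.17), rols (27.5 ± 1.63) and mbc (24.5 ± 3.12), which overlapped, followed by twi (13.8 ± 3.46), clear of the rest. kon (7.23 ± 1.495), zfh1 (6.17 ± 1.22), Him (6.10 ± 2.19) and sns (5.41 ± 2.99) came last and overlapped. Him thus stood at rank 2 of 9 in ds38k and rank 8 of 9 in WT. Division by length leaves the length trend between the genotypes in these values. Him has the shortest transcript of the 9, so its change of rank holds that trend too.

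Set against twi in the same library, which cancels the number of precursor cells only if twi itself is constant per cell, the members differed between genotypes. The CPM of Him over that of twi was 0.681, 0.564, 0.548 and 0.344 in ds38k replicates 1 to 4, against 0.209, 0.202 and 0.161 in WT replicates 1 to 3. Every ds38k library had more Him per twi, 2.80 times as much by the means. Him over Mef2, the inhibitor over its target, was 0.323 ± 0.0829 in ds38k (SD, n = 4) and 0.0628 ± 0.0241 in WT (SD, n = 3), a 5.14-fold difference with no overlap. sns over twi was 0.211 to 0.267 in ds38k and 1.07 to 2.03 in WT, 6.44-fold lower in ds38k. mbc over twi was 5.40-fold lower in ds38k by the means, kon over twi 4.68-fold lower and rols over twi 2.82-fold lower, each without overlap. zfh1 over twi was 0.786 in ds38k replicate 4, below the lowest WT library at 1.119 but far above the 0.205 to 0.283 of the other ds38k libraries. Transcript length differs within each pair, so these ratios hold the length trend too.

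**Figure D4:**
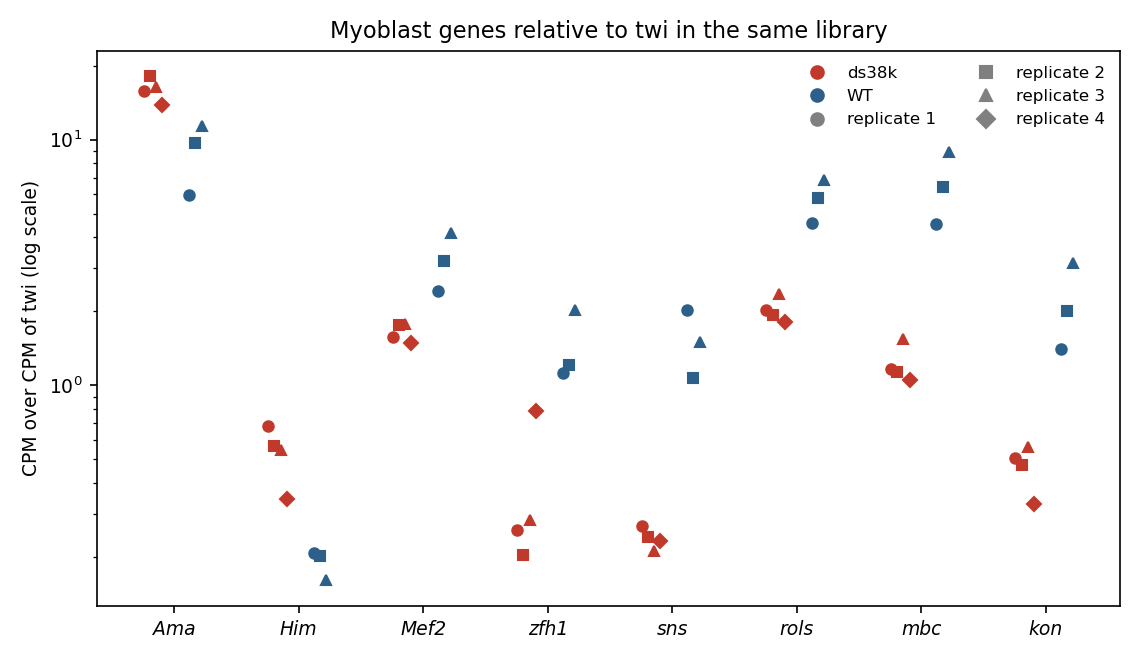
CPM of each gene divided by the CPM of twi in the same library (log axis), ds38k left of WT, with marker shapes for replicate numbers. Ama and Him lie higher and the other genes lower in every ds38k library than in any WT library.

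By the smallest root mean square difference of centred log2 CPM over the 7 libraries, each member had close neighbours among 8273 other genes. Those of Him were Tpi, the glycolytic enzyme triose phosphate isomerase (0.142), and CG15529 (0.174). Tpi had 769, 730.3, 603 and 521 CPM in ds38k replicates 1 to 4, against 251, 191 and 138.5 CPM in WT replicates 1 to 3, in the same order within each group as Him. zfh1 was closest to Eip75B, an ecdysone-induced nuclear receptor gene (0.129), which had 84.1, 65.0, 88.3 and 338 CPM in ds38k replicates 1 to 4, against 305, 238 and 364 CPM in WT replicates 1 to 3. Like zfh1, Eip75B was at the WT level in ds38k replicate 4 and low in the other 3. The neighbours of Ama were Pomp, a proteasome assembly factor gene (0.0475), and CG34132 (0.0545). Those of twi were CCT6, a chaperonin subunit gene (0.0770), and CG1882 (0.0774), and those of Mef2 were kek1 (0.0490) and CG8545 (0.0496). The closest to sns was mus205, a DNA polymerase gene (0.252), and then CG13954 (0.300); these had their highest level in WT replicate 1, as sns did. The neighbours of rols were loco (0.0493) and Rich (0.0651), of mbc ssp3 (0.0535) and CG5098 (0.0682), and of kon the receptor phosphatase gene Lar (0.0664) and NaCP60E (0.0672). The closest pair of members was mbc and kon (0.188), and 77 genes lay nearer to kon than mbc did.

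The other genes of the myoblast programme were read from 3 lists. Of 25 other regulators of the precursors 20 were tested, of which 2 rose and 5 fell, or 7 of 20 called, against 65.0% of all genes. Their median log2 fold change was -0.32, and that of all genes was 0.07. ths, which encodes a ligand of the myoblast FGF receptor, had 27.8, 22.4, 27.0 and 26.6 CPM in ds38k replicates 1 to 4, against 114.9, 96.3 and 143.5 CPM in WT replicates 1 to 3. On the log2 scale it fell by 2.19 ± 0.15 (SE; adjusted p of edgeR = 2.0e-05), and its length corrected value fell by 0.88 (adjusted p = 9.6e-04). ap, the dorsal selector gene, fell by 0.81 ± 0.13 and gro, which encodes the Groucho co-repressor, by 0.53 ± 0.09. The 2 that rose were vito, which encodes a nucleolar protein (0.71 ± 0.11), and emc, picked after its value was seen, which encodes an inhibitor of helix-loop-helix factors (0.80 ± 0.14). With the length correction gro and vito were not called, 5 of the 20 rose and 3 fell. That is 40.0% called, against 46.7% of all genes. Without ds38k replicate 4 the counts were 2 higher and 9 lower, or 6 higher and 7 lower length corrected. In the uncorrected fit without that library 3341 of 9214 tested genes were higher and 3190 lower.

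The FGF receptor gene htl and its adaptor gene stumps mark the same myoblasts, and both were picked after their values were seen. htl had 37.0 ± 5.11 CPM in ds38k (SD, n = 4) and 33.6 ± 3.17 CPM in WT (SD, n = 3), with an edgeR adjusted p of 0.37, or 0.030 with upper-quartile scaling (0.40). stumps had 64.0 ± 12.3 CPM in ds38k and 81.05 ± 16.1 CPM in WT (adjusted p = 0.13). Length corrected, htl rose by 0.95 ± 0.12 in log2 units (edgeR adjusted p = 9.6e-04), and stumps had a value of 0.55 (adjusted p = 0.052).

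Of 26 other genes of myoblast adhesion and fusion, all tested, 9 rose and 9 fell. That is 69.2% called, against 65.0% of all genes, with a median log2 fold change of 0.14. Sra-1, a subunit of the SCAR complex that activates actin branching, had 132, 137, 144.5 and 127 CPM in ds38k replicates 1 to 4, against 378.5, 398 and 394 CPM in WT replicates 1 to 3, a fall of 1.53 ± 0.07 in log2 units (SE; edgeR adjusted p = 4.9e-06). shg, which encodes E-cadherin, fell by 1.61 ± 0.08, and both mib2, a ubiquitin ligase gene of muscle maintenance, and Pak, a kinase gene downstream of Rac, fell by 0.52. Length corrected, Sra-1 fell by 0.36 (adjusted p = 0.019), shg was not called, and mib2 (0.41) and Pak (0.27) rose. The corrected counts were 11 higher and 2 lower of 25. That is 52.0% called, against 46.7% of all genes, of which 27.6% were higher and 19.1% lower.

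Members of the fusion list that work with the 9 genes, picked after their values were seen, did not all move with them. Besides the fallen genes named above, blow fell by 0.62 ± 0.09 (SE; edgeR adjusted p = 8.1e-04). rst, siz, Vrp1 and CadN were called lower too, by 0.44, 0.60, 0.65 and 1.72. With the length correction blow stayed lower (-0.39, edgeR adjusted p = 0.019). rst (0.92) and siz (0.65) were then called higher, and Vrp1 and CadN were not called. hbs, which encodes the other receptor of the Sns kind, rose by 0.64 ± 0.20 (SE; edgeR adjusted p = 0.026) while sns fell before the length correction. With the correction sns was not called, and hbs has no corrected value. hbs had 103, 93.2, 101 and 57.7 CPM in ds38k replicates 1 to 4, against 58.3, 51.9 and 60.9 CPM in WT replicates 1 to 3, so that ds38k replicate 4 lay at the WT level. Without that library the value was 0.80 ± 0.09 (edgeR adjusted p = 2.0e-04). Ced-12, the partner of Mbc in the Rac exchange complex, rose by 0.32 ± 0.07 (adjusted p = 0.0049), with 43.4 ± 0.956 CPM in ds38k and 34.7 ± 0.552 CPM in WT, and by 0.53 with the length correction. kirre, which encodes the founder cell receptor Dumbfounded, had 8.44 ± 0.848 CPM in ds38k and 5.35 ± 2.20 CPM in WT (adjusted p = 0.074), and its length corrected value was 1.76 (adjusted p = 0.0018). The 3 listed genes of the Arp2/3 complex, Arp2, Arp3 and Arpc1, rose by 0.29 to 0.42 on the log2 scale. With the length correction Arp2 alone of them was called (0.27, edgeR adjusted p = 0.045).

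Of 17 other genes of muscle migration and attachment, all tested, 3 rose and 11 fell, 82.4% of the list against 65.0% of all genes, with a median log2 fold change of -0.65. sli, which encodes the guidance ligand Slit, had 80.6, 64.6, 72.5 and 68.8 CPM in ds38k replicates 1 to 4, against 413.5, 369 and 441.5 CPM in WT replicates 1 to 3. It fell by 2.51 ± 0.11 (SE; edgeR adjusted p = 3.5e-06), and robo1, its receptor gene, fell by 2.43 ± 0.12. Both also fell with the length correction, by 0.82 and 0.92. LanA, a laminin chain gene, fell by 1.54 ± 0.13 and mys, the beta integrin gene, by 0.98 ± 0.10; with the correction they had values of 0.22 and 0.03 and were not called, although LanA was without ds38k replicate 4 (0.27, edgeR adjusted p = 0.030). Grip, which encodes the intracellular partner of Kon-tiki and was picked after its value was seen, rose while kon fell before the length correction. With the correction kon had a value of -0.02 and was not called (edgeR adjusted p = 0.90). Grip had 31.5 ± 6.40 CPM in ds38k and 13.9 ± 2.37 CPM in WT, which is 1.19 ± 0.20 on the log2 scale (edgeR adjusted p = 0.0016), or 2.004 with the correction. The corrected counts of the list were 4 higher and 5 lower, 52.9% of the list against 46.7% of all genes.

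Markers of other tissues also separated or divided the libraries. Of 25 genes of differentiated muscle 20 were tested, 14 rose and 1 fell (16 and 1 without ds38k replicate 4), where 34.2% of all tested genes were higher and 30.8% lower. Without ds38k replicate 4, 3341 of 9214 tested genes were higher and 3190 lower. The summed level of the muscle genes was 3189 to 4855 CPM in ds38k and 1359 to 1456 CPM in WT. Argk1, the arginine kinase gene and the most abundant of the list, rose as well (2599 to 3432 CPM in ds38k and 744.5 to 929 CPM in WT). Without Argk1 the sum was 991, 860.2, 1739 and 590.1 CPM in ds38k replicates 1 to 4, against 527, 564 and 655 CPM in WT replicates 1 to 3, so that ds38k replicate 4 lay within the WT range. Tm1 alone had 348 CPM of that sum in ds38k replicate 4. The tested genes of the list, read singly after the values were seen, differed in that library. Act87E (43.5 CPM, against 7.21 to 9.59 CPM in WT) and TpnC73F (7.79, against 0.426 to 1.28) lay above every WT library. So did Argk1, Act57B, Mlc2, up, wupA, Tm2, bt, Mlp60A and Mf, and Prm by a narrow margin. Mhc, Mlc1, Mlp84B, Tm1 and Strn-Mlck lay within the WT range, and sls, Zasp52 and Unc-89 below it. The myosin gene Mhc had 9.91, 6.56, 43.5 and 2.23 CPM in ds38k replicates 1 to 4, against 0.597, 3.74 and 2.28 CPM in WT replicates 1 to 3 and was not called (edgeR adjusted p = 0.056), but was called higher without ds38k replicate 4 (adjusted p = 0.015). Length corrected, Mhc was called higher over all libraries (4.30, edgeR adjusted p = 0.020). The corrected counts of the muscle list were 16 higher and 0 lower, where 27.6% of all genes were higher and 19.1% lower. The flight muscle actin Act88F stayed at or under 0.256 CPM everywhere. Prm, picked after its values were seen, ran from 1.32 to 102 CPM over the ds38k libraries, while Mef2 stayed between 65.3 and 66.1 CPM in them. Of the 8 fat body genes 7 rose, or all 8 without ds38k replicate 4, and with the length correction 7 were higher and 0 lower. Their sum was 966, 3242, 937 and 62.1 CPM in ds38k replicates 1 to 4 and 15.1 to 27.3 CPM in WT. ds38k replicate 4, the library with the WT level of zfh1, thus had the lowest level of fat body and muscle markers of its group. Its fat body sum still lay above that of every WT library. It also had the lowest haemocyte sum of its group, and the highest sums of the tracheal, neuron and glia, notum, and pouch and hinge lists. A link of any of these lists with zfh1 was not tested.

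The counts of the remaining lists stand beside 34.2% higher and 30.8% lower among all tested genes, or 27.6% and 19.1% with the length correction. Those without ds38k replicate 4 stand beside 3341 higher and 3190 lower of 9214 genes. The 11 haemocyte genes summed to 129.5 to 237 CPM in ds38k and 165.5 to 214.6 CPM in WT, with 1 higher and 2 lower of 10 tested, or 4 and 2 without ds38k replicate 4, and 0 called with the length correction. Hml had 2.05 to 8.06 CPM in ds38k and 15.5 to 36.02 CPM in WT, and a length corrected value of -0.32 (edgeR adjusted p = 0.56). Tracheal genes summed to 2273 to 2764 CPM in ds38k and 3112 to 3506 CPM in WT, with 0 higher and 3 lower of 7 tested, or 1 and 2 of 6 with the length correction. trh fell to 24.0 ± 1.38 CPM in ds38k, against 54.2 ± 7.79 CPM in WT, with a length corrected value of -0.03 (edgeR adjusted p = 0.87). Of 5 tested genes of neurons and glia 1 rose and 2 fell, or 2 and 2 length corrected, with sums of 318 to 387 CPM in ds38k and 386.5 to 466 CPM in WT; elav fell by 1.03, and the glial gene repo stayed at or under 0.346 CPM. Notum genes, which mark the epithelium above the myoblasts, summed to 664 to 954 CPM in ds38k and 1131 to 1302 CPM in WT, with 3 higher and 3 lower of 11, or 4 and 2 length corrected, among them pnr (0.68 ± 0.13, higher). eyg was not called, and without ds38k replicate 4, when 6 of the list were lower, it was (-0.996, edgeR adjusted p = 3.9e-04). Of 9 pouch and hinge genes 8 fell, including the pouch gene nub (215.5 to 358.5 CPM in ds38k and 517 to 739 CPM in WT). With the length correction 1 was higher and 5 were lower, and nub had a value of -0.65 (edgeR adjusted p = 0.022). The part of these tissues in the values of the myoblast genes was not tested.

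**Figure D5:**
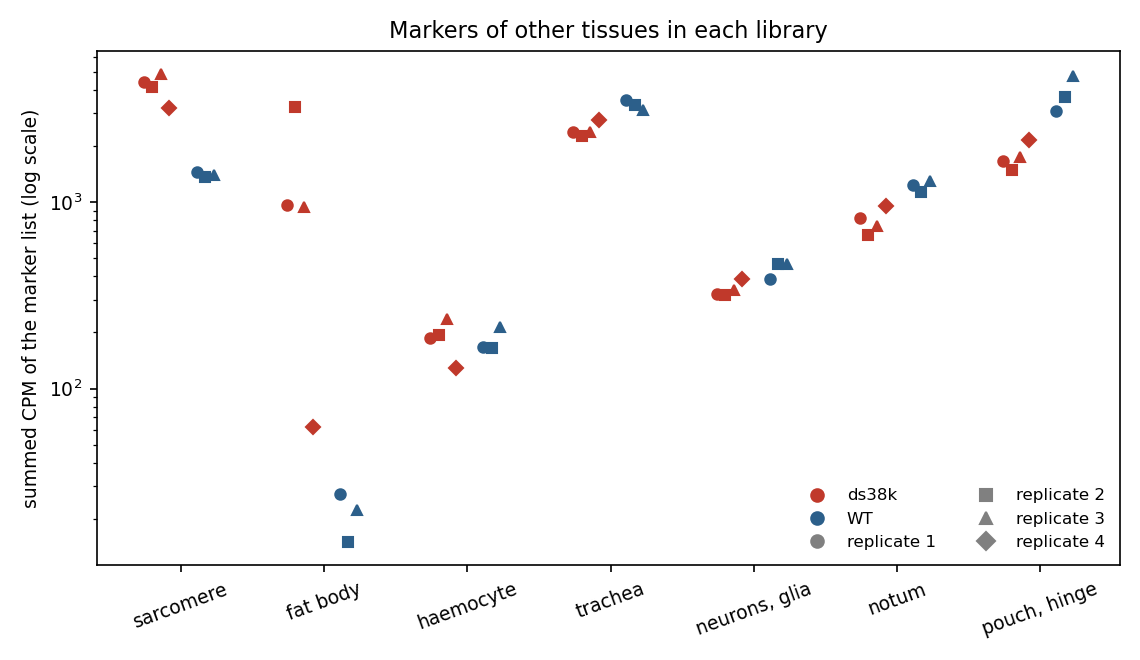
Summed CPM (log axis) of marker lists of other tissues and disc regions in each library, ds38k left of WT, with marker shapes for replicate numbers. Fat body markers run from 62.1 CPM in ds38k replicate 4 to 3242 CPM in ds38k replicate 2, and the muscle sum is higher in every ds38k library than in any WT library, which does not hold for ds38k replicate 4 once Argk1 is left out.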

How the data were processed

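RNA of wing discs was sequenced in 7 libraries, 4 ds38k and 3 WT, as paired reads of 150 bases; per the labels' protocols, each used 10 ng of RNA and 12 to 15 cycles. The authors deposited expected counts per gene, not scaled between libraries. The tools named in the submitters' processing notes are Salmon 1.80, Trimmomatic 0.33, FastQC 0.10 and edgeR, with build dm6. Annotation and strand setting: not given in the sources used here. Expected counts of this kind divide reads between similar transcripts by a model. PCR duplicates cannot be recognised, and counting errors cover counting only.

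The deposited expected counts were rounded. The annotation BDGP6.54 (dm6 coordinates) held 17083 of the 17208 identifiers, and 0 sample columns were left over. With R 4.3.3 and edgeR 4.0.16, genes were kept by filterByExpr (minimum count 10), scaled by TMM factors and tested by the quasi-likelihood F-test of genotype over all 7 libraries, without covariates, with Benjamini-Hochberg adjustment over all tested genes at 0.05. The SE was taken as the absolute log2 fold change over root F. log2 CPM used a prior count of 2. The length correction fitted each library's deviation of log2 CPM on log2 median transcript length by a natural spline (5 degrees of freedom) and entered it as an offset; it removes real changes that run with length too. hbs, for one, has no length in that annotation. Alternatives included DESeq2 1.42.0, other scalings, no filter, a replicate block and leaving out each library. Fits of the marker lists without ds38k replicate 4, upper-quartile values of further list genes and the muscle sum without Argk1 were chosen after seeing the data. The procedure was tested on simulated counts. Figures used Python 3.11.15 and matplotlib 3.10.9. No sequence was used.

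The members and gene lists were chosen with earlier results of these data known. The text names all 9 members, the 2 nearest genes of each, the 4 smallest p-values of each of 3 lists and defining tissue markers. Bar, BarH1, BarH2 and tal were not matched to the table under these names.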

Additional observations from a re-analysis of the deposited data

Results flagged for a closer look

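Among the 21 genes examined in this way (the 9 members and 12 other named genes), 2 had a ds38k library far from the other 3 relative to the range of the group; chance gives such a gap in about 1 of 20 groups. zfh1 had 34.8 CPM in ds38k replicate 4, and 7.61 to 10.8 CPM in the other ds38k libraries. That gap was 0.884 of the group's range. mib2 had 74.99 CPM in ds38k replicate 4 and 71.2 to 71.8 CPM in the other ds38k libraries, a gap that is small next to its difference from the WT libraries (100.2 to 107 CPM). The group of 3 WT libraries was not examined in this way.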

How the results depend on the processing

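Of the other settings tried the length correction moved most. With it 1 member was lower against 5 without it, and the lower counts of the fusion, progenitor and attachment lists were 2, 3 and 5, the higher count of the progenitor list was 5, and 1760 of all genes were lower. Mef2 (0.19), zfh1 (0.16), rols (0.42), mib2 (0.41), Pak (0.27), LanA (0.22) and mys (0.031) changed sign. With upper-quartile factors all genes together shifted, to a median of 0.33 against 0.07, 3990 genes were higher and 2259 lower, against 3183 and 2859, 5 progenitor genes were higher, and Mef2 lost its call (-0.20, edgeR adjusted p = 0.069); none of the 9 members and of the 12 list genes named by their p-values changed sign. DESeq2 called 9 progenitor genes lower. RLE size factors ended the call of twi and made one of zfh1, no filter ended that of twi, and DESeq2 called zfh1 lower. Leaving out each library gave 5 to 9 lower progenitor genes. Among length corrected values it gave 0 to 2 lower members, 0 to 3 lower fusion genes, 1 to 7 lower progenitor genes and 3 to 5 lower attachment genes. The corrected log2 fold change then ranged from -0.54 to 0.40 for zfh1, -0.10 to 0.074 for kon, -0.11 to 0.024 for gro, -0.024 to 0.14 for vito and -0.0050 to 0.10 for mys. Him and Ama were called higher in every alternative run. Whether equal replicate numbers mark pairs cannot be told from these values. The deviations of libraries with equal numbers had correlations of 0.14, 0.0031 and 0.098. Those of libraries with unequal numbers had correlations from -0.11 to 0.044. With a replicate block 9 progenitor genes were lower, and with the block and the length correction 2 members and 7 progenitor genes were lower, with zfh1 at -0.54 and kon at 0.071. Since ds38k replicate 4 has no counterpart, the block sets it aside. The cause of these shifts was not tested. Him, with 109 to 186 counts in the WT libraries, had the least precise counts of the members in WT. In ds38k sns had the least precise counts, with a counting error of 6.38% against 4.30% for Him.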

Other observations

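Other genes of the lists, picked after their values were seen, resembled zfh1 in that ds38k replicate 4 lay nearer to the WT libraries than the other 3 did. WASp, which encodes an activator of actin branching in fusion, had 9.57, 4.54, 5.30 and 43.0 CPM in ds38k replicates 1 to 4, against 45.9, 43.1 and 44.5 CPM in WT replicates 1 to 3. Dr, a muscle identity and dorsal patterning gene, had 22.6, 17.2, 19.6 and 214 CPM in ds38k replicates 1 to 4, against 395, 356 and 349.5 CPM in WT replicates 1 to 3. tup, a notum gene, had 10.4, 5.002, 7.15 and 23.2 CPM in ds38k replicates 1 to 4, against 20.3, 22.2 and 27.4 CPM in WT replicates 1 to 3. None of these was called in the fit over all libraries, with edgeR adjusted p-values of 0.12 for WASp, 0.054 for Dr and 0.10 for tup. Without ds38k replicate 4 all 3 were called lower, with log2 fold changes of -2.78 for WASp (edgeR adjusted p = 1.1e-04), -4.21 for Dr (1.6e-06) and -1.63 for tup (0.0014). The 3 genes were picked for the gap of the library that this fit leaves out, so its p-values are no separate evidence for them. In that fit 3341 of 9214 tested genes were called higher and 3190 lower. twi, Mef2, Ama, sns, rols and mbc did not share the pattern of zfh1. Their level in ds38k replicate 4 was 0.946 to 1.15 times the mean of the other ds38k libraries, against 3.61 times for zfh1. Him had 0.655 times and kon 0.735 times that mean.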
